A study of Homo sapiens with 12 samples.

Results

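The genes described are the epidermal growth factor receptor EGFR, its ligand genes AREG, EREG, HBEGF and TGFA, and 5 genes that are known as feedback inhibitors or targets of the kinase ERK, namely ERRFI1, DUSP6, SPRY2, SPRY4 and ETV5. They were taken by symbol, 1 row each, from a table of 63187 genes, and all 10 of them reached the level needed for testing. The table holds RNA sequencing of MDA-MB-231, a cell line from a breast adenocarcinoma that was first grown with 10% serum and then kept for 36 h in 1 of 4 media with 3% serum. The deficient medium had neither glucose nor glutamine, the glucose-only medium had 25 mM glucose without glutamine, the glutamine-only medium had 4 mM glutamine without glucose, and the full medium had both. Each medium had 3 libraries with the replicate letters A, B and C, and all 12 carried the same batch label. The labels do not say that the 3 libraries of a medium were separate cultures, so the p-values measure the spread between these libraries, which may be technical.

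The ligands are made as membrane proteins and are released by proteases, after which they bind EGFR on the same or a neighbouring cell. The receptor switches on RAS, the RAF kinases, MEK and ERK, and ERK in turn induces genes that shut the signal down. Among these, ERRFI1 binds and inhibits the receptor itself, the Sprouty proteins act between receptor and RAF, and the phosphatase DUSP6 removes the activating phosphates from ERK in the cytoplasm. ETV5 is a transcription factor of the ETS family whose gene is induced by ERK. MDA-MB-231 cells are known for high EGFR.

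The libraries held 875033 to 1473587 reads assigned to genes. The values below are normalized counts, which are reads scaled by the authors with a single factor for every library, so that 1 read was worth 0.661 to 1.30. Of 7 luminal epithelial markers 4 stayed under 10 in every library, with the E-cadherin gene CDH1 at most 0.917 and the oestrogen receptor gene ESR1 at most 2.35, although the labels call the cells epithelial. The keratin genes KRT18 and KRT8 were present, KRT18 averaging 371 in deficient and 243 in full medium and KRT8 65.3 in deficient and 157 in full medium. The vimentin gene VIM, a mesenchymal marker that this line is known to express, averaged 1012, 659, 844 and 788 in deficient, glucose-only, glutamine-only and full medium. Of the 5 mesenchymal markers 3 rose and 1 fell in deficient against full medium at the threshold given below. Of all genes tested 26.3% rose and 25.5% fell in that comparison. The fibronectin gene FN1 averaged 543 in deficient and 1135 in full medium. Fibroblast markers (5 genes) summed to at most 8.46 per library, those of blood cells (4 genes) to at most 9.11 and those of adipocytes (3 genes) to at most 0.917. Of 4 endothelial markers 2 stayed under 10. Their summed levels were 14.8 to 24.1, 5.88 to 9.43, 15.3 to 18.6 and 15.6 to 20.7 in deficient, glucose-only, glutamine-only and full libraries, with the defining marker CDH5 at most 0.963. These sums hide opposite changes of KDR and PECAM1. KDR averaged 14.1, 4.42, 5.57 and 2.94 in the same order of media, and PECAM1 4.49, 3.49, 10.3 and 14.9. The part of other cells in the results was not tested. Scaling matters for directions: with libraries set to equal totals the median change of all genes moved by -0.39 on the log2 scale for deficient against full medium, by -0.21 for glucose-only and by -0.12 for glutamine-only, and it also moved by -0.17 for deficient against glucose-only and by -0.27 for deficient against glutamine-only medium. Of the genes called, 23.6%, 15.5% and 31.6% were then higher in deficient, glucose-only and glutamine-only against full medium, 36.6% and 25.0% in deficient against glucose-only and glutamine-only, and 21.3% in glucose-only against glutamine-only medium. For the interaction defined below, 45.7% of the genes called were above 0 with quantile normalization.

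**Figure D1:**
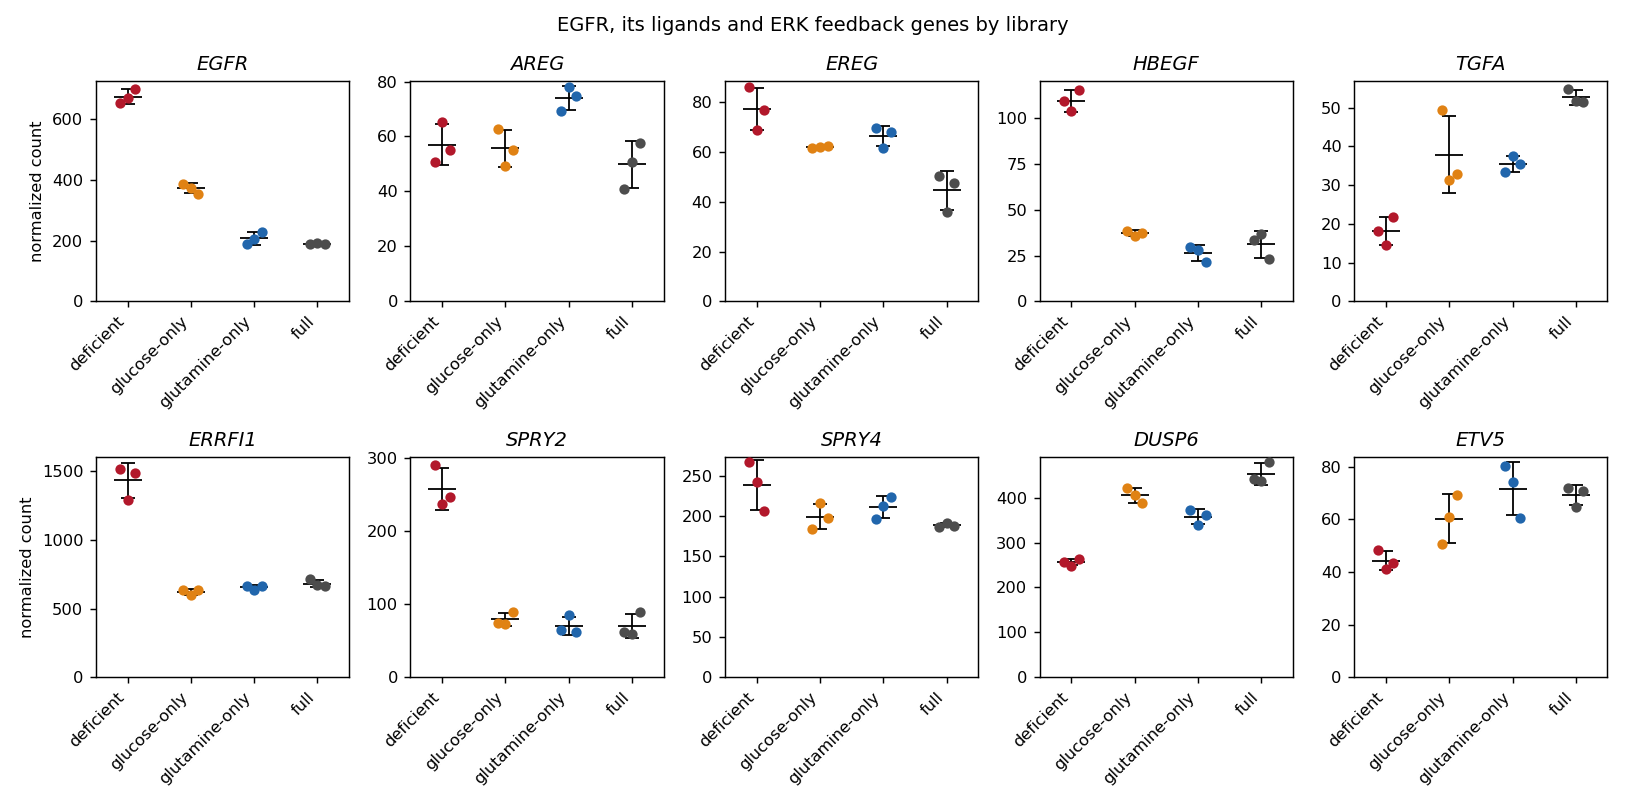
Normalized count (vertical axis, from 0) of each of the 10 genes in the 4 media (horizontal axis), with 1 point per library and the mean ± SD of 3 libraries as bars. HBEGF, ERRFI1 and SPRY2 stand apart in the deficient libraries alone, and TGFA and DUSP6 are lowest in the deficient libraries. EGFR is highest in deficient, lower in glucose-only and lowest in glutamine-only and full libraries, which overlap.

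Loss of both nutrients moved most of these genes, and in both directions. Of the 10 genes 6 rose in deficient against full medium, where 26.3% of all 9270 genes tested rose, and 3 fell, where 25.5% of all genes fell (limma, Benjamini-Hochberg adjusted p under 0.05 over all genes, as throughout). EGFR, EREG, HBEGF, ERRFI1, SPRY2 and SPRY4 rose, TGFA, DUSP6 and ETV5 fell, and AREG did not pass. When libraries were set to equal totals 7 of the 10 genes were called. EGFR, HBEGF, ERRFI1 and SPRY2 then rose and TGFA, DUSP6 and ETV5 fell. The calls of EREG (0.39, adjusted p = 0.0617) and SPRY4 (-0.07, adjusted p = 0.678) were lost. The median log2 change was 0.56 over the 10 genes and 0.01 over all genes tested. In these bulk samples a different mix of cell states and a different amount of RNA per cell cannot be told apart.

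The receptor gene EGFR (ENSG00000146648, GRCh38.p14 chromosome 7, 55019017 to 55211628, plus strand) was higher in both media without glutamine. It had 652, 668 and 699 normalized counts in the deficient libraries, 387, 373 and 354 in glucose-only, 189, 204 and 228 in glutamine-only, and 189, 191 and 187 in full libraries. The deficient libraries were the highest, the glucose-only libraries lay between them and the rest, and glutamine-only and full libraries overlapped. EGFR was 3.55-fold higher in deficient than in full medium, a log2 change of 1.83 ± 0.09 (SE, adjusted p = 1.34e-15). It was 1.96-fold higher in glucose-only than in full medium, at 0.97 ± 0.09 (adjusted p = 6.78e-09). The change in glutamine-only against full medium was 0.13 ± 0.09 and did not pass (adjusted p = 0.38). EGFR was also the only one of the 10 genes called between the single-nutrient media. It was 1.79-fold higher in glucose-only than in glutamine-only medium, at 0.84 ± 0.09 (adjusted p = 1.59e-07), where 5.05% of all genes were higher and 8.26% lower. The change between these media was -0.41 ± 0.15 for AREG (adjusted p = 0.0773) and 0.50 ± 0.18 for HBEGF (adjusted p = 0.0648), and the adjusted p of the remaining 7 genes was at least 0.212. An antisense transcript, EGFR-AS1, shares 186 exonic bases with EGFR, and since the strand setting of the counting is not given in the sources used here its reads cannot be told apart there. EGFR-AS1 itself was at most 7.23.

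Among the ligands HBEGF, the gene of heparin-binding EGF-like growth factor, was raised in the deficient medium. HBEGF (ENSG00000113070, chromosome 5, 140332843 to 140346603, minus strand) had 109, 104 and 116 normalized counts in the deficient, 38.5, 35.6 and 37.6 in the glucose-only, 29.8, 27.9 and 21.4 in the glutamine-only and 33.7, 36.7 and 22.9 in the full libraries. Every deficient library lay above all 9 others, whose values overlapped between full medium and each single-nutrient medium. HBEGF was 3.51-fold higher in deficient than in full medium, at 1.81 ± 0.18 (adjusted p = 1.49e-09). It was 2.89-fold higher in deficient than in glucose-only medium (1.53 ± 0.18) and 4.07-fold higher than in glutamine-only medium (2.03 ± 0.18). Neither single loss passed, with log2 changes of 0.28 ± 0.18 in glucose-only (adjusted p = 0.277) and -0.22 ± 0.18 in glutamine-only against full medium (adjusted p = 0.435).

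TGFA, which encodes transforming growth factor alpha, went the other way. TGFA (ENSG00000163235, chromosome 2, 70447284 to 70553826, minus strand) had 18.2, 14.5 and 21.7 normalized counts in the deficient, 49.4, 31.4 and 32.9 in the glucose-only, 33.4, 37.6 and 35.4 in the glutamine-only and 54.9, 51.7 and 51.4 in the full libraries. The deficient libraries were the lowest and the full libraries the highest, with no overlap with the media between them. TGFA was 2.83-fold lower in deficient than in full medium, at -1.50 ± 0.20 (adjusted p = 2.93e-07). In glutamine-only against full medium it was at -0.56 ± 0.20 (adjusted p = 0.041), a call that was lost without any 1 of the 6 glutamine-only and full libraries, with adjusted p of 0.0683 to 0.122. In glucose-only against full medium it did not pass, at -0.49 ± 0.20 (adjusted p = 0.0729). It passed there without glucose-only replicate A (-0.69, adjusted p = 0.0203) and with equal totals (-0.71, adjusted p = 0.0155). It also passed with edgeR, a test on read counts (-0.48, adjusted p = 0.0441). These levels rest on 12 to 83 reads per library.

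The neighbouring genes AREG and EREG, of amphiregulin and epiregulin, changed less. They lie 56.4 kb apart on the plus strand of chromosome 4, EREG at 74365145 to 74388749 and AREG at 74445136 to 74455005. EREG (ENSG00000124882) had 85.9, 68.8 and 76.9 normalized counts in the deficient, 61.4, 61.8 and 62.3 in the glucose-only, 69.5, 61.6 and 68.0 in the glutamine-only and 50.3, 35.7 and 47.7 in the full libraries. The full libraries were the lowest of all, and the other 3 media differed by less than the test could call. EREG rose by 0.79 ± 0.15 in deficient (adjusted p = 5.25e-05), by 0.48 ± 0.15 in glucose-only (adjusted p = 0.0176) and by 0.58 ± 0.15 in glutamine-only medium (adjusted p = 0.00439), each against full medium. With equal totals all 3 calls were lost (0.39, 0.26 and 0.46, adjusted p = 0.0617, 0.291 and 0.0597), and the call in glucose-only medium was also lost without full replicate B (0.33, adjusted p = 0.137). AREG (ENSG00000109321) had 50.8, 65.2 and 55.1 normalized counts in the deficient, 62.6, 49.2 and 55.3 in the glucose-only, 69.5, 78.0 and 74.6 in the glutamine-only and 41.0, 50.8 and 57.8 in the full libraries. The glutamine-only libraries were the highest, and the other 3 media overlapped. AREG rose by 0.57 ± 0.15 in glutamine-only against full medium (adjusted p = 0.00677). This call was lost with equal totals (0.46, adjusted p = 0.063) and without full replicate A (0.44, adjusted p = 0.0644). AREG did not pass in deficient (0.20 ± 0.15, adjusted p = 0.293, and -0.20 with equal totals) or glucose-only against full medium (0.16 ± 0.15, adjusted p = 0.482, and -0.05 with equal totals).

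The upstream sequences of this ligand pair are shown because both hold a TATA box, the letters TATAAA, close to the start, at 29 bases upstream in AREG and 32 in EREG. Of 13 RefSeq windows of 9 of the genes the only other one with these letters lay at a second start inside EGFR. Both are the 250 bases before the start in GRCh38.p14, from RefSeq, with motif matches in capitals. AREG also holds the cyclic AMP response element TGACGTCA at 65 bases upstream, which 1.65% of all 35116 RefSeq promoter windows of this length hold. The letters TATAAA stand in 10.7% of all windows.
AREG, chr4:74444886-74445135, plus strand: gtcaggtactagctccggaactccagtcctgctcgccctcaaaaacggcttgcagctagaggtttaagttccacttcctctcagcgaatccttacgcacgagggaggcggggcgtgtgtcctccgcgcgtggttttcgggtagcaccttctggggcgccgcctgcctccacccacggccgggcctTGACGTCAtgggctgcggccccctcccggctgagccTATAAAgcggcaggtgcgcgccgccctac
EREG, chr4:74364895-74365144, plus strand: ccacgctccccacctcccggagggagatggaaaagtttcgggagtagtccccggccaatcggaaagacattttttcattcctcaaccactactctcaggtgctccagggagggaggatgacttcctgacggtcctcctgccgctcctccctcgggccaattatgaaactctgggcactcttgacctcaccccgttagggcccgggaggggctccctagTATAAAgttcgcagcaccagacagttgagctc

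The feedback genes divided in the deficient medium. ERRFI1, the receptor inhibitor also called MIG6, and SPRY2, a Sprouty inhibitor of receptor signalling, rose, while DUSP6 and ETV5 fell. ERRFI1 (ENSG00000116285, chromosome 1, 8011727 to 8026309, minus strand) had 1520.3, 1291 and 1490.05 normalized counts in the deficient, 632, 598 and 636 in the glucose-only, 661, 638 and 666 in the glutamine-only and 712, 669 and 662 in the full libraries. All 9 libraries with a nutrient lay between 598 and 712, and the deficient ones far above them. ERRFI1 was 2.10-fold higher in deficient than in full medium, at 1.07 ± 0.09 (adjusted p = 1.54e-10), against -0.13 ± 0.09 in glucose-only (adjusted p = 0.345) and -0.06 ± 0.09 in glutamine-only medium (adjusted p = 0.737). With equal totals the change in glucose-only medium was called, at -0.35 (adjusted p = 0.0255). An antisense transcript that shares 155 exonic bases with ERRFI1 was at most 8.54.

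SPRY2 was raised in the deficient medium. SPRY2 (ENSG00000136158, chromosome 13, 80335976 to 80341126, minus strand) had 290.3, 237 and 247 normalized counts in the deficient, 74.7, 73.3 and 89.4 in the glucose-only, 64.0, 84.8 and 61.5 in the glutamine-only and 61.5, 59.2 and 89.0 in the full libraries. The deficient libraries stood above all others, and the other 3 media overlapped. SPRY2 was 3.70-fold higher in deficient than in full medium, at 1.89 ± 0.15 (adjusted p = 1.37e-11), 3.23-fold higher than in glucose-only and 3.66-fold higher than in glutamine-only medium. Its changes in glucose-only and glutamine-only against full medium were 0.20 ± 0.15 (adjusted p = 0.369) and 0.01 ± 0.15 (adjusted p = 0.966), and -0.02 and -0.10 with equal totals.

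Its relative SPRY4 hardly moved. SPRY4 (ENSG00000187678, chromosome 5, 142310430 to 142325021, minus strand) had 267, 243 and 206 normalized counts in the deficient, 184, 216 and 198 in the glucose-only, 197, 212 and 224 in the glutamine-only and 186, 191 and 188 in the full libraries. The deficient libraries overlapped both single-nutrient media and lay above the full libraries. SPRY4 rose by 0.33 ± 0.11 in deficient against full medium (adjusted p = 0.0106), but was at -0.07 with equal totals and was not called without deficient replicate A (0.24, adjusted p = 0.0809). Against full medium it was at 0.08 ± 0.11 in glucose-only and 0.16 ± 0.11 in glutamine-only medium, neither of which passed. The spread of its 4 medium means, 0.33 on the log2 scale, was larger than that of only 8.94% of all genes tested, against 92.2% for SPRY2.

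The promoters of HBEGF, SPRY2 and ERRFI1, which rose together in the deficient medium, are shown for comparison. In these windows, the 250 bases before the start in GRCh38.p14 from RefSeq, neither strand held any of the 8 motifs searched. These were the cyclic AMP response element TGACGTCA, the AP-1 site TGANTCA, the ETS site CCGGAAG, the octamers TGAATGAA, TGAATGGA, TCAATGAA and TCAATGGA of the repressor CIC, the CArG box, the heat shock element, the composite C/EBP-ATF site TGATGNAAT and the TATA box TATAAA. The TATA box was sought only as these letters, so the run tatatata near the start in ERRFI1 was not counted. The share of all windows with none of the 8 motifs was 70.9%, and the windows of SPRY4, TGFA and the first start of EGFR held none either. Their G and C content was 76.4% in HBEGF, 70.4% in SPRY2 and 75.2% in ERRFI1, where the median of all windows was 58.0%. It was also 75.6% in TGFA, which fell, 73.6% at the first start of EGFR and 65.6% in SPRY4. Windows at other starts of the same genes held less, at 62.4% and 41.2% in SPRY2, 64.0% in TGFA and 38.8% in EGFR.
HBEGF, chr5:140346604-140346853, minus strand: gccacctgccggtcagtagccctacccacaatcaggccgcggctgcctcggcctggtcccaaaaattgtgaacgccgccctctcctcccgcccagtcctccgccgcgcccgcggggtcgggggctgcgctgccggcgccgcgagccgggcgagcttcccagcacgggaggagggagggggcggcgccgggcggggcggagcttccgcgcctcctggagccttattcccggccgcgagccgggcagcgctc
SPRY2, chr13:80341127-80341376, minus strand: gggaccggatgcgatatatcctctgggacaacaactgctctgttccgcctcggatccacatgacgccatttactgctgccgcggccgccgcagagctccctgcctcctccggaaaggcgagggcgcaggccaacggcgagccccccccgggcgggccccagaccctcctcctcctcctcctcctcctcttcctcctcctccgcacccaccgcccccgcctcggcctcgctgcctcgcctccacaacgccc
ERRFI1, chr1:8026310-8026559, minus strand: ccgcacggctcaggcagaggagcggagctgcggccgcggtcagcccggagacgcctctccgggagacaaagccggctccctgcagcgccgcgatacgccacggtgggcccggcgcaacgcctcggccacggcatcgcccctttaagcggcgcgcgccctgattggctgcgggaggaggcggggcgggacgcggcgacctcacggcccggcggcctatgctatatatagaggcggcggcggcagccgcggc

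DUSP6 and ETV5 were lowest without both nutrients, where the other feedback genes described, ERRFI1, SPRY2 and SPRY4, had their highest means. DUSP6 (ENSG00000139318, chromosome 12, 89347235 to 89352501, minus strand) had 256, 249 and 263 normalized counts in the deficient, 422, 407 and 388 in the glucose-only, 373, 339 and 361 in the glutamine-only and 442, 436 and 479.8 in the full libraries. No 2 media overlapped, in the order full, glucose-only, glutamine-only and deficient. DUSP6 was 1.76-fold lower in deficient than in full medium, at -0.82 ± 0.09 (adjusted p = 1.56e-08), and at -0.34 ± 0.09 in glutamine-only against full medium (adjusted p = 0.00711). The neighbours in this order that were not called were glucose-only and full medium (-0.16 ± 0.09, adjusted p = 0.224, but -0.38 and adjusted p = 0.0201 with equal totals) and glucose-only and glutamine-only medium (0.18 ± 0.09, adjusted p = 0.212). An antisense transcript shares 1875 exonic bases with DUSP6 and was itself at most 15.98.

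ETV5 (ENSG00000244405, chromosome 3, 186046314 to 186109089, minus strand) had 48.2, 41.1 and 43.5 normalized counts in the deficient, 50.6, 60.8 and 69.4 in the glucose-only, 80.3, 74.2 and 60.6 in the glutamine-only and 72.1, 64.9 and 70.6 in the full libraries. The deficient libraries lay below all others, which overlapped each other. ETV5 was 1.55-fold lower in deficient than in full medium, at -0.64 ± 0.15 (adjusted p = 0.000782). It was at -0.21 ± 0.15 in glucose-only (adjusted p = 0.343) and 0.04 ± 0.15 in glutamine-only against full medium (adjusted p = 0.886), the last of which was -0.08 with equal totals. The neighbouring gene DGKG shares 164 exonic bases with ETV5 on the same strand and was at most 3.53.

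The DUSP6 promoter is shown because it was the only one of the 13 windows searched, from 9 of the genes, with an octamer of CIC, a repressor that ERK is known to inactivate. The 250 bases before the start hold TCCATTGA in capitals, the reverse complement of TCAATGGA, 24 bases upstream of the start. One of the 4 octamers stands in 3.18% of all RefSeq windows.
DUSP6, chr12:89352502-89352751, minus strand: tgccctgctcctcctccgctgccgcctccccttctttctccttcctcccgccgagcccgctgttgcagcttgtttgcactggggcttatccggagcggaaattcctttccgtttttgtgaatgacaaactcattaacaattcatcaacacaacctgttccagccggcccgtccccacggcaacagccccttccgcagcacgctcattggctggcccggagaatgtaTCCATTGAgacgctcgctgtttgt

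**Figure D2:**
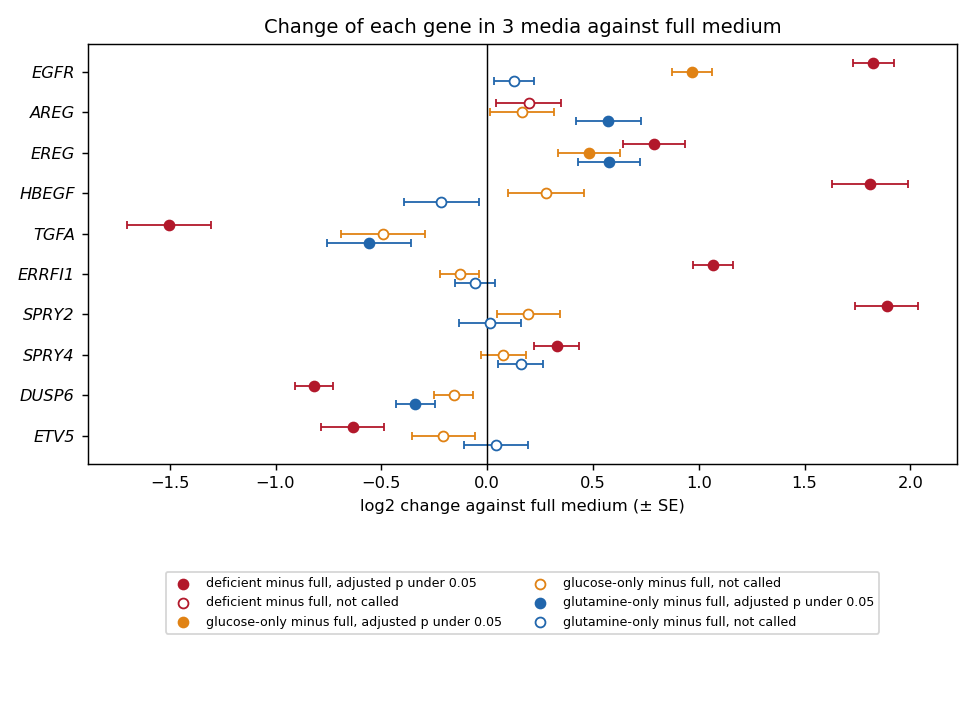
Log2 change (horizontal axis, ± SE) of each gene in deficient, glucose-only and glutamine-only medium against full medium, with filled points for adjusted p under 0.05. The deficient points of EGFR, HBEGF, ERRFI1 and SPRY2 lie at 1.07 to 1.89 and that of TGFA at -1.50, while the only single-nutrient point past 0.60 is EGFR in glucose-only medium at 0.97.

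The single losses called far fewer of the 10 genes than the double loss. In glucose-only against full medium, which asks what lack of glutamine does while glucose is present, 2 rose, EGFR and EREG, and 0 fell, where 9.44% of all genes rose and 13.5% fell. With equal totals 1 rose and 3 fell in that comparison. In glutamine-only against full medium, which asks what lack of glucose does while glutamine is present, AREG and EREG rose and TGFA and DUSP6 fell, where 10.8% of all genes rose and 11.6% fell. With equal totals 0 rose and 2 fell. The comparisons against full medium share the full libraries, so their values are not independent.

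Removing the remaining nutrient from a single-nutrient medium called more of the 10 genes than removing a nutrient from full medium. In deficient against glucose-only medium 4 of the 10 genes rose and 3 fell, where 23.2% of all genes rose and 20.1% fell. EGFR was at 0.86 ± 0.09, HBEGF at 1.53 ± 0.18, ERRFI1 at 1.20 ± 0.09 and SPRY2 at 1.69 ± 0.15, and TGFA was at -1.01 ± 0.20, DUSP6 at -0.66 ± 0.09 and ETV5 at -0.43 ± 0.15. The call of ETV5 was lost with DESeq2, a test on read counts (adjusted p = 0.1001), and with no filter on level (adjusted p = 0.082). It was also lost without deficient replicate B (adjusted p = 0.0675), glucose-only replicate B (adjusted p = 0.054) or glucose-only replicate C (adjusted p = 0.121). In deficient against glutamine-only medium the same 4 genes rose and 4 fell, where 21.6% of all genes rose and 19.9% fell. EGFR was at 1.70 ± 0.09, HBEGF at 2.03 ± 0.18, ERRFI1 at 1.13 ± 0.09 and SPRY2 at 1.87 ± 0.15, and TGFA was at -0.94 ± 0.20, ETV5 at -0.68 ± 0.15, DUSP6 at -0.48 ± 0.09 and AREG at -0.38 ± 0.15. The call of AREG (adjusted p = 0.0494) was at the threshold. It was lost with the replicate letter as a block (adjusted p = 0.0506) and without deficient replicates A or C, glucose-only replicate C, full replicate B or any 1 of the glutamine-only libraries.

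The design also asks whether the double loss equals the sum of the single losses. The interaction, deficient minus glucose-only minus glutamine-only plus full medium on the log2 scale, was called above 0 for 4 of the 10 genes. Of all genes 15.5% were called above and 11% below the sum. With quantile normalization 3 of the 10 genes were called above 0 and 3 below it. HBEGF changed by 1.81 in deficient medium, where the single losses summed to 0.06, a difference of 1.75 ± 0.25 (adjusted p = 5.98e-06). SPRY2 changed by 1.89 against a sum of 0.21, a difference of 1.68 ± 0.21 (adjusted p = 5.49e-07). ERRFI1 changed by 1.07 against a sum of -0.19, a difference of 1.26 ± 0.13 (adjusted p = 3.19e-08). EGFR changed by 1.83 against a sum of 1.10, a difference of 0.73 ± 0.13 (adjusted p = 0.000151), which was 0.29 and not called with quantile normalization (adjusted p = 0.13). The genes lower in deficient medium did not pass: the difference was -0.45 ± 0.28 for TGFA (adjusted p = 0.242), -0.32 ± 0.13 for DUSP6 (adjusted p = 0.0657) and -0.47 ± 0.21 for ETV5 (adjusted p = 0.0988). It was -0.54 ± 0.22 for AREG (adjusted p = 0.0642), -0.27 ± 0.21 for EREG (adjusted p = 0.363) and 0.09 ± 0.15 for SPRY4 (adjusted p = 0.689). Quantile normalization called DUSP6 at -0.61 (adjusted p = 0.000903), ETV5 at -0.70 (adjusted p = 0.0183) and AREG at -0.76 (adjusted p = 0.0113). AREG was called in 6, DUSP6 in 3 and ETV5 in 2 of the alternatives tried.

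**Figure D3:**
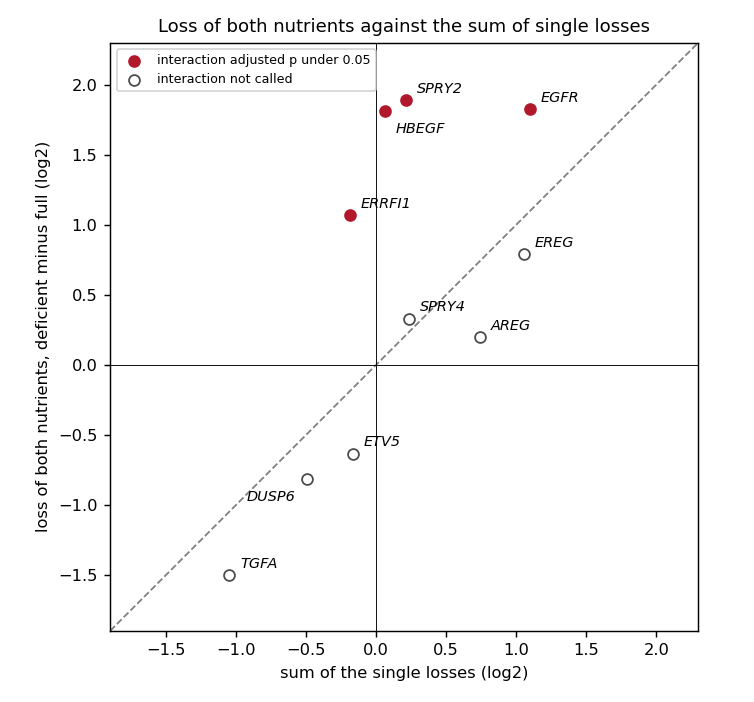
Log2 change on loss of both nutrients (vertical axis, deficient minus full) against the sum of the log2 changes on loss of each nutrient alone (horizontal axis), 1 point per gene, with the dashed line where they are equal. HBEGF, SPRY2, ERRFI1 and EGFR lie above the line with an interaction past the threshold, EGFR at a sum of 1.10 and the other 3 at sums between -0.19 and 0.21.

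Levels of different genes were set side by side per kilobase of exon, with exon lengths taken from GENCODE release 29 and not from the authors' annotation, which is not given in the sources used here. The length of a gene was that of all its annotated exons together, so exons that are not expressed lower its value. In the deficient medium ERRFI1 was highest at 343 ± 29.8 normalized counts per kilobase (SD, n = 3), followed by SPRY2 at 84.9 ± 9.37, DUSP6 at 55.3 ± 1.57 and EGFR at 53.7 ± 1.90. HBEGF at 36.3 ± 1.97, SPRY4 at 36.3 ± 4.69 and AREG at 34.6 ± 4.49 lay within each other's spread, above EREG at 13.5 ± 1.495, ETV5 at 7.62 ± 0.623 and TGFA at 3.66 ± 0.731. In the full medium ERRFI1 was again highest at 163 ± 6.44 per kilobase, followed by DUSP6 at 97.7 ± 5.13. AREG at 30.2 ± 5.12, SPRY4 at 28.7 ± 0.336 and SPRY2 at 23.0 ± 5.45 lay close together in the full medium, above EGFR at 15.1 ± 0.147. ETV5 at 11.9 ± 0.658, TGFA at 10.6 ± 0.390, HBEGF at 10.3 ± 2.39 and EREG at 7.79 ± 1.36 closed the order. Thus AREG had the highest level per kilobase of the 4 ligand genes in glucose-only (33.8 ± 4.07), glutamine-only (44.9 ± 2.61) and full medium, and in the deficient medium HBEGF stood beside it. Before division by length, TGFA at 52.6 lay above AREG at 49.8 in full medium, and EREG at 61.9 above AREG at 55.7 in glucose-only medium. In glutamine-only medium AREG was highest either way, at 74.0 before division.

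The genes with the most similar pattern were sought for the 5 genes whose medium means spanned at least 1 on the log2 scale, as the smallest root mean square difference of centred log2 values over the 12 libraries. This is a description of these libraries. For EGFR they were NAV3 (0.21), the polyamine synthesis gene ODC1 (0.21) and the nuclear receptor gene NR1D2 (0.22). ODC1 averaged 162, 78.2, 48.5 and 32.9 normalized counts in deficient, glucose-only, glutamine-only and full medium. For HBEGF they were the transcription factor gene ETS1 (0.18), the HSP70 and HSP90 co-chaperone gene STIP1 (0.18) and the nucleolar GTPase gene GNL2 (0.20). For SPRY2 they were again ETS1 (0.22), FRMD6 (0.22) and the glutathione synthesis gene GCLM (0.23). ETS1 averaged 542, 167, 127 and 141 in deficient, glucose-only, glutamine-only and full medium. For ERRFI1 they were the translation initiation factor gene EIF3M (0.12), the guanine nucleotide exchange factor gene TRIO (0.12) and the heparan sulfate polymerase gene EXT1 (0.12). For TGFA they were ICMT, which encodes the enzyme that methylates RAS and other prenylated proteins (0.14), MOB1A (0.16) and OGFRL1 (0.17).

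Other genes of the pathway, in 5 lists drawn up by role, moved in both directions in deficient against full medium: of 63 tested 15 rose and 25 fell, where 26.3% of all genes rose and 25.5% fell. The 63 include DUSP2, which reached the level needed for testing only through its deficient libraries. Its rise was therefore favoured by the filter. Of the other ERBB receptors and ligands 3 of 10 were tested, namely ERBB2, ERBB3 and NRG1, and 1 fell. That gene, ERBB2, a partner of EGFR named here after its values were seen, averaged 8.16 in deficient and 22.1 in full medium (log2 change -1.36 ± 0.28, adjusted p = 0.000214). The chromosome 4 ligand relatives BTC and EPGN were at most 4.66 and 8.39. Of 6 genes of ligand shedding 2 fell and 4 did not pass (median -0.46). TIMP3, an inhibitor of the shedding protease ADAM17, averaged 179 ± 5.47, 258 ± 5.93, 502 ± 43.5 and 690 ± 16.03 normalized counts in deficient, glucose-only, glutamine-only and full medium and fell by 1.94 ± 0.09 on the log2 scale (adjusted p = 2.19e-16). ADAM10, named after its values were seen, was at -0.78 ± 0.13 (adjusted p = 8.74e-06), and ADAM17 itself did not pass at 0.19 ± 0.16 (adjusted p = 0.348).

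Of 14 tested genes of receptor trafficking and inhibition 6 rose, 4 fell and 4 did not pass (median 0.31), against the same 26.3% and 25.5% of all genes. PTPRJ, a receptor phosphatase that acts on EGFR, averaged 97.4 ± 16.6, 277 ± 15.1, 240 ± 6.31 and 441 ± 11.05 in deficient, glucose-only, glutamine-only and full medium and was 4.54-fold lower in deficient than in full medium (-2.18 ± 0.11, adjusted p = 3.39e-16). Of 20 tested genes of the RAS-ERK cascade 3 rose, 10 fell and 7 did not pass (median -0.36), where 26.3% of all genes rose and 25.5% fell. RASAL2, which encodes a RAS GTPase-activating protein, averaged 253 ± 5.98, 76.3 ± 11.9, 71.6 ± 7.46 and 61.2 ± 1.59 in the same order of media and was 4.09-fold higher in deficient than in full medium (2.03 ± 0.13, adjusted p = 6.94e-14). The other 2 that rose, BRAF (0.70 ± 0.16) and RASA2 (0.99 ± 0.29), were named after their values were seen.

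Of 20 other tested ERK feedback and target genes 6 rose, 8 fell and 6 did not pass (median -0.03), where 26.3% of all genes rose, 25.5% fell and the median was 0.01. Among these 20 is DUSP2, which was tested only through its high deficient libraries. DUSP5, a nuclear ERK phosphatase, averaged 359 ± 16.6, 58.7 ± 9.19, 110 ± 9.41 and 63.4 ± 6.83 in deficient, glucose-only, glutamine-only and full medium, 5.604-fold higher in deficient than in full medium (2.49 ± 0.12, adjusted p = 6.07e-16). DUSP4, another nuclear phosphatase, averaged 301 ± 12.49, 536 ± 19.3, 503 ± 19.8 and 700 ± 27.6 and was 2.32-fold lower in deficient than in full medium (-1.22 ± 0.09, adjusted p = 3.71e-12). ETV1, an ETS factor related to ETV5, was 3.27-fold lower in deficient than in full medium (-1.71 ± 0.11), and FOSL1, the AP-1 subunit gene, 2.74-fold higher (1.45 ± 0.11). The third ETS relative ETV4 and the Sprouty gene SPRY1, named after their values were seen, were at -0.85 ± 0.24 (adjusted p = 0.0035) and -1.13 ± 0.20 (adjusted p = 2.58e-05). The repressor gene CIC was at 0.00 ± 0.20 and did not pass (adjusted p = 0.998).

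**Figure D4:**
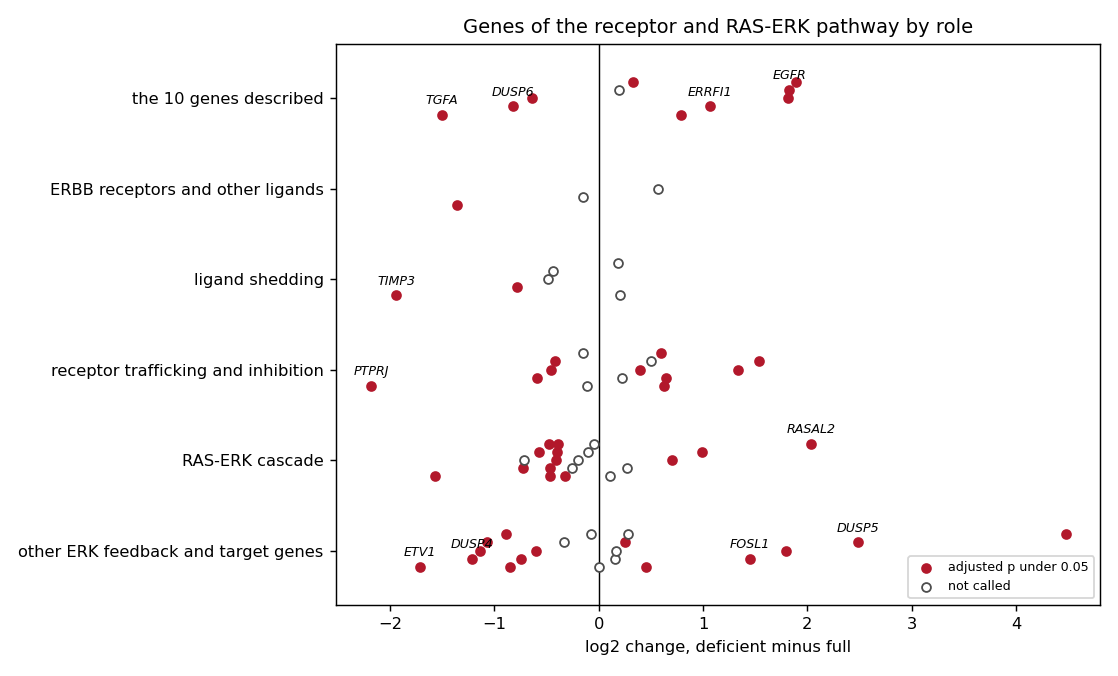
Log2 change in deficient minus full medium (horizontal axis) of every tested gene, 1 point per gene, for the 10 genes described and 5 lists of pathway genes by role (vertical axis), filled where adjusted p was under 0.05. The lists reach both directions, from PTPRJ at -2.18 and TIMP3 at -1.94 to DUSP5 at 2.49 and, unlabelled at the far right, DUSP2.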

How the data were processed

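The authors deposited a single table with 1 column per library. These values are a signal that the authors made by scaling the reads of each gene with a library size factor, as deposited, called normalized counts here. The submitters' processing notes name FastQC, HISAT2, Subread, DESeq2 and GRCh38.p14; versions, annotation and strand setting are not given in the sources used here. Libraries were stranded and depleted of ribosomal RNA, per the labels' protocols. All values (100%) were whole multiples of the value of 1 read within 0.01 reads, so reads were recovered, 875033 to 1473587 per library.

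Genes with at least 10 in at least 3 of 12 libraries were kept, 9270 of 32493 with any read. The test was limma-trend 3.58.1 (R 4.3.3) on log2(normalized count + 1), 1 mean per medium over all libraries, two-sided, Benjamini-Hochberg adjusted over the 9270 genes. Fold changes are powers of the log2 change on that scale, which understates changes of low genes. Alternatives, including edgeR 4.0.16 and DESeq2 1.42.0 on recovered reads, are given below. The procedure was tested on simulated data.

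The members and lists were chosen with earlier results of these data known. All 10 members are named. List genes are named if called with a log2 change of at least 1 in deficient against full medium and a mean of at least 50, at most 4 per list; similar genes are the 3 nearest with a mean of at least 50. Promoters were matched by symbol in RefSeq for 9 of 10 genes, all but ETV5, and the window nearest the annotated start was printed. Libraries of a medium differed by 1.15 to 5.03 times counting noise per gene, the most for deficient replicates B and C.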

Additional observations from a re-analysis of the deposited data

Results flagged for a closer look

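The effect of removing glucose differed with and without glutamine in 4 of the 10 genes by the interaction test of limma, which is the same as the effect of removing glutamine differing with and without glucose. The difference between the effects was 0.73 on the log2 scale for EGFR, 1.75 for HBEGF, 1.26 for ERRFI1 and 1.68 for SPRY2. For HBEGF, ERRFI1 and SPRY2 the value stayed past the threshold with each library left out, at 1.61 to 1.95, 1.21 to 1.33 and 1.49 to 1.82. For EGFR it was 0.67 to 0.80 with each library left out and 0.29 with quantile normalization, where it was not called. The share of reads on protein-coding genes moved with the media, at 42.9% to 51.6% in deficient, 41.6% to 46.2% in glucose-only, 48.0% to 54.6% in glutamine-only and 52.3% to 59.8% in full libraries, and its part in these differences was not tested.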

How the results depend on the processing

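Of 70 log2 changes, 10 genes in 7 comparisons, 35 were called, and 26 of these kept their direction and call under every alternative in which the gene was tested. The calls of EGFR, HBEGF, TGFA, ERRFI1, DUSP6, SPRY2 and ETV5 between deficient and full medium were among them, and with equal totals, where all genes moved by -0.39, they were 1.43, 1.42, -1.89, 0.67, -1.22, 1.49 and -1.03. The only called value that turned was SPRY4 in that comparison, -0.070 with equal totals.

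Members called moved by more than 1.5 times as follows. With a mean of at least 100, where 5 members were tested, 5 were called for deficient against full (9 as reported), 4 against glutamine-only (8), 1 for glucose-only (2) and 1 for glutamine-only medium (4), each against full. For glucose-only against full medium 1 was called with no filter, with DESeq2 and at adjusted p under 0.01, and 4 with equal totals. With equal totals it was 2 when glutamine-only was set against full medium, and for glucose-only against glutamine-only 3 with quantile normalization (1). With each library left out the counts were 8 to 9 for deficient, 1 to 3 for glucose-only and 2 to 4 for glutamine-only against full, 6 to 8 and 7 to 8 for deficient against glucose-only and glutamine-only, 1 to 2 between these, and 4 to 5 for the interaction. The count was 1 for glucose-only against full without full replicate B, 2 for glutamine-only against full without full replicate A, and 2 between the single-nutrient media without full replicate C.

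Pathway list genes called with a mean of at least 100, 16 tested, were 15, 7 and 10 for deficient, glucose-only and glutamine-only against full (40, 12 and 17 as reported), 15 and 14 for deficient against glucose-only and glutamine-only (32 and 31), and 13 for the interaction (22). For glutamine-only against full they were 11 with no filter and 10 with DESeq2 or adjusted p under 0.01. For glucose-only against glutamine-only (9) they were 4 with no filter, 5 with equal totals, 14 with quantile normalization, and 3 with DESeq2 or adjusted p under 0.01, and for the interaction 14 with DESeq2. With each library left out they were 31 to 41, 10 to 15, 13 to 18, 27 to 33, 27 to 32, 5 to 11 and 17 to 22 in the same order of comparisons, the 5 being without glucose-only replicate A, glutamine-only replicate B or glutamine-only replicate C.

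Values that were not called and turned were these; apart from settings with fewer libraries the cause was not tested. With equal totals AREG was at -0.20, -0.050 and -0.15 (deficient against full, glucose-only against full, deficient against glucose-only), SPRY2 at -0.021 and -0.10 (glucose-only and glutamine-only against full), SPRY4 at -0.14 (glucose-only against full) and -0.11 (deficient against glutamine-only), ETV5 at -0.076 (glutamine-only against full), EREG at -0.068 (deficient against glutamine-only) and TGFA at -0.031 (glucose-only against glutamine-only). With quantile normalization AREG was at -0.12 and SPRY4 at -0.043 (deficient against glucose-only), SPRY4 at -0.042 (deficient against glutamine-only) and 0.0017 (glucose-only against glutamine-only) and -0.25 (interaction), and ERRFI1 at 0.044 (glucose-only against glutamine-only). With each library left out SPRY2 was at -0.13 to 0.20 and ETV5 at -0.044 to 0.16 (glutamine-only against full), AREG at -0.067 to 0.12 (deficient against glucose-only) and TGFA at -0.13 to 0.18 (glucose-only against glutamine-only).

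On recovered reads edgeR called 2550 genes higher and 2458 lower for deficient against full, and DESeq2 2029 and 1909. DESeq2 called 509 and 746 for glucose-only against full, 179 and 425 for glucose-only against glutamine-only and 844 and 651 for the interaction, where limma called 875 and 1249, 468 and 766, and 1438 and 1020. DESeq2 did not call SPRY4 in deficient (adjusted p = 0.0509), EREG in glucose-only (0.128) or TGFA in glutamine-only against full medium (0.106). Nor did it call ETV5 in deficient against glucose-only (0.1001) or AREG in deficient against glutamine-only medium (0.149). Deviations of libraries with the same letter correlated at -0.03 to 0.07 over 18 pairs, and those with different letters at -0.07 to 0.04. Of 12 libraries 8 correlated best with their own letter, so pairing by letter was not settled. With the replicate block 9, 2, 4, 7, 7, 1 and 4 members were called, and the call of AREG between deficient and glutamine-only medium was lost. Depth limits TGFA most, at 12 to 28 reads per deficient library.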

Other observations

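Among the 63 tested pathway genes outside the 10 described, 12 had an interaction above 0 and 10 below it (limma, adjusted p under 0.05), where 15.5% of all genes were above and 11% below. The highest among genes with a mean of at least 50 were DUSP5 at 1.82 (adjusted p = 5.83e-09) and RASAL2 at 1.51 (adjusted p = 2.00e-07), followed by the ETS factor gene ELK3 at 1.03 (adjusted p = 1.17e-05) and the gene of the receptor ubiquitin ligase CBL at 0.92 (adjusted p = 5.28e-05). The lowest at that mean were the adaptor gene SHC1 at -1.05 (adjusted p = 0.000118), the ETS factor gene ELK4 at -0.95 (adjusted p = 0.00101) and ETV1 at -0.77 (adjusted p = 0.000643). These genes were picked after their values were seen.

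DUSP2, a nuclear phosphatase gene, was read at 32.2 on average in deficient medium and at 0.349, 3.42 and 0.526 in glucose-only, glutamine-only and full medium. Only its deficient libraries brought it to the level needed for testing, so its high value there is no independent result. HRAS and NF1 stayed at or below 4.82 in every library, under the level needed for testing.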
